A study of Mus musculus with 4 samples.

Results

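The cells described here were picked from single-cell RNA sequencing of mouse inguinal white fat by the transcripts of Itgb4, a laminin-binding integrin subunit, and Cldn1, a tight junction protein, and carry the working name perineurial-like. A cell was a member when at least 4 of Sfrp5, Itgb4, Cldn1, Klf5, Ptch1, Lypd2 and Itga6 were detected, with at least 1 unique molecular identifier (UMI, a counted transcript) of Itgb4 or Cldn1. Cells with any UMI of Ptprc (leukocytes), Pecam1 (endothelium) or Sox10 (Schwann cells) were left out. This rule gave 64 members among 14931 retained cells. The Lin- libraries held 42 from iAdFASNKO and 16 from control mice, and the Lin+ libraries 5 and 1.

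The cells came from the stromal vascular fraction, the non-adipocyte cells released when a fat pad is digested. It was pooled from 8 iAdFASNKO mice and from 7 control mice of the strain C57BL/6. The labels do not spell out iAdFASNKO, which is known to be a line where Fasn, encoding fatty acid synthase, can be deleted by induction in fat cells. The sources used here give neither the Cre driver, the inducing agent and its timing, nor the age of the mice. Each pool was split by magnetic beads into lineage-marker-positive (Lin+) and lineage-marker-negative (Lin-) cells, so each genotype and fraction is 1 pooled library. No test between genotypes exists, and the intervals given below are 95% intervals that cover counting error only, not the spread between mice or between cells.

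Perineurial cells form the layered sleeve around each bundle of nerve fibres. They are joined by tight junctions, lie on basement membrane and take up glucose through GLUT1 (gene Slc2a1), and together with the endoneurial vessels they make the blood-nerve barrier. During development in the mouse, Schwann cells secrete desert hedgehog (Dhh), and the mesenchymal cells that receive it through the receptor Ptch1 organise into the perineurial sheath. White fat is innervated, and a fat pad that is digested whole also releases cells of its small nerves.

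The 64 cells were not 1 uniform set. A first set, 6 cells with at least 2 of the epithelial genes Krt5, Krt14, Krt8, Krt18 and Epcam detected, went against the name. They were the 6 deepest members, with 22225 to 111113 UMIs each, and none had a UMI of Sfrp5 or Lypd2. Of these, 4 were control Lin- cells with 69 to 291 UMIs of Krt8, 90 to 348 of Krt18 and 47 to 183 of Epcam each, the keratins and adhesion molecule of simple epithelium. They had no Cldn1 UMI and 1 or 2 UMIs of Itgb4 each. The other 2 were iAdFASNKO Lin+ cells with Krt5 and Krt14, the keratins of basal epithelium, and 1 or 2 UMIs of Cldn1. The 4 control cells are few but supplied 255576 of the 342274 UMIs of the control Lin- members, so the counts of genes by genotype are given with and without them. Each of their 4 barcode sequences also occurred in the 3 other libraries, where it had 419 to 2049 UMIs and at most 1 of the 7 genes. In all, 209 barcode sequences occurred in more than 1 library, and no other member's did.

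A second set was 10 cells with at least 2 UMIs of a set of 3 Schwann cell transcripts that includes Cdh19, which were 6 iAdFASNKO and 3 control Lin- cells and 1 iAdFASNKO Lin+ cell. Scrublet called 1 of these 10, and no other member, a doublet. The remaining 48 cells were 36 iAdFASNKO and 9 control Lin- cells, and 2 iAdFASNKO and 1 control Lin+ cells. Within them, 1 iAdFASNKO and 1 control Lin- cell stood apart by the contractile gene Acta2, with 145 and 190 UMIs. The members without the epithelial-marker cells held no UMI of the 16 epithelial markers in either Lin- library. Of the 10 immune markers they held 2 UMIs in iAdFASNKO and 0 in control cells.

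**Figure D1:**
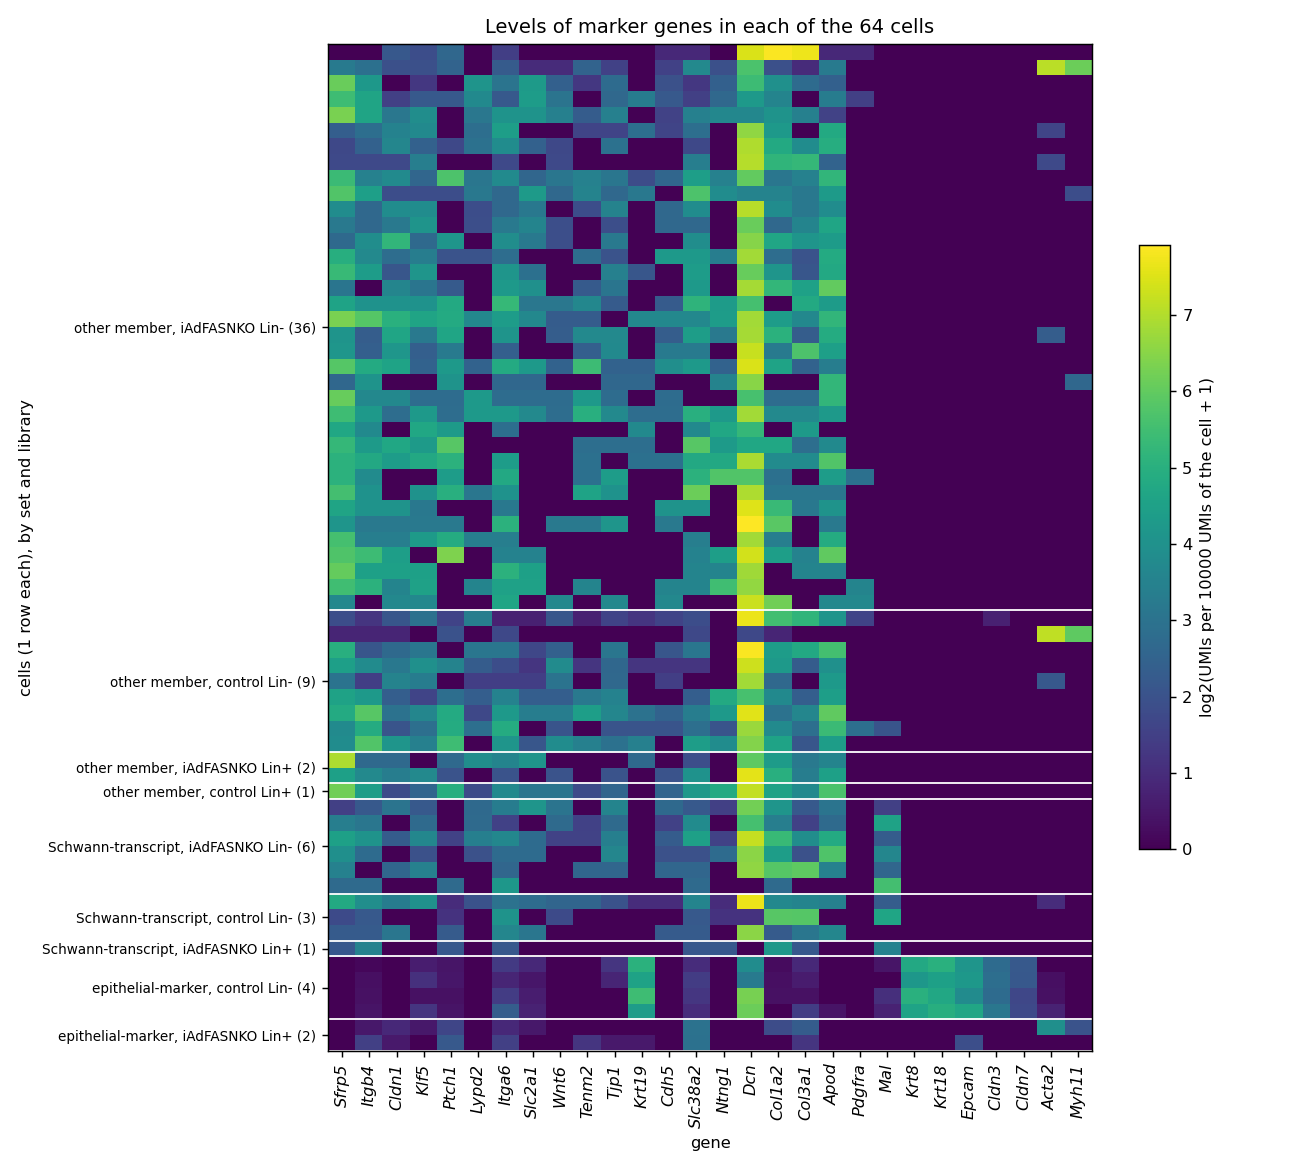
Each row is 1 of the 64 cells and each column a gene; colour gives log2 of UMIs per 10000 UMIs of the cell plus 1. Sfrp5 to Itga6 are the genes of the rule. The Krt8 and Krt18 signal lies in the 4 control epithelial-marker cells and the Epcam signal mainly there.

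The rule sets a threshold on detected genes, which depth also sets. Members had a median of 2558 UMIs in the iAdFASNKO and 8667.5 in the control Lin- library, and 6579 in control without the epithelial-marker cells. All retained cells of these libraries had medians of 4205.5 and 9138. Just inside the threshold, 6 iAdFASNKO and 5 control Lin- cells had exactly 4 of the 7 genes, and 4 of those 5 control cells were the epithelial-marker ones. Just outside it, 6 iAdFASNKO and 14 control cells had exactly 3, of which 4 and 7 carried Schwann transcripts. A further 0 and 5 of them had at least 2 of the epithelial genes. All 7 genes were detected in 11 iAdFASNKO and 6 control cells. The exclusion of Sox10 removed 16 further cells over the 4 libraries, that of Pecam1 8 and that of Ptprc 0.

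**Figure D2:**
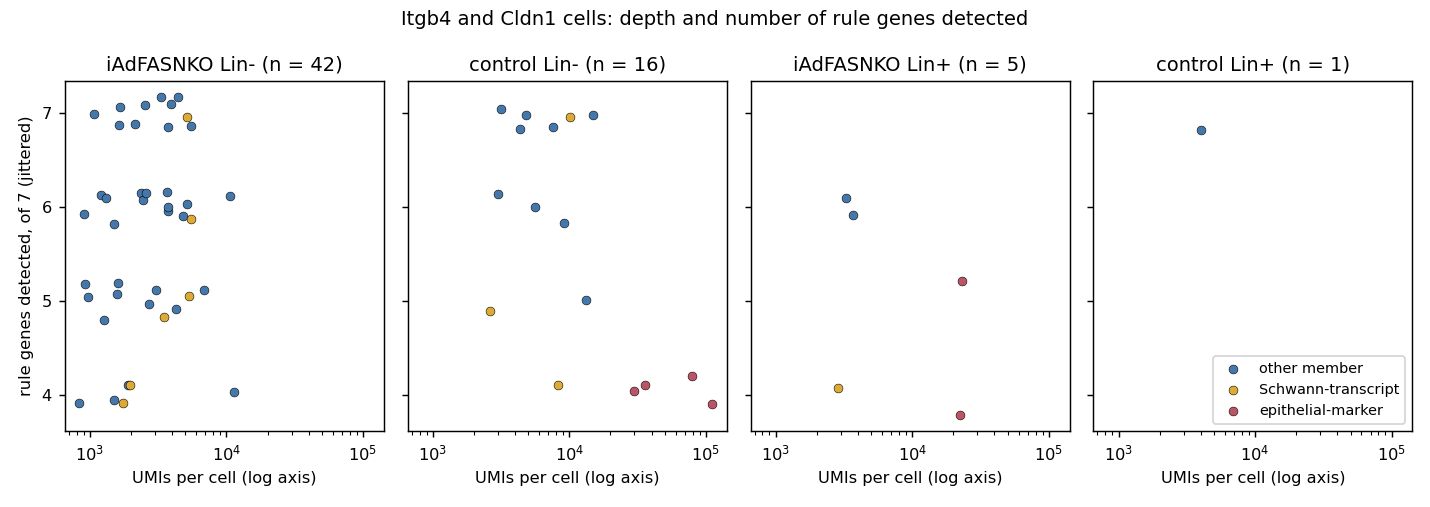
Each point is 1 member, with its UMIs on a log axis and the number of the 7 rule genes detected (jittered), for the 42, 16, 5 and 1 members of the 4 libraries. The epithelial-marker cells lie at the right with 4 or 5 genes detected. The iAdFASNKO Lin- members reach down to 835 UMIs and the control ones to 2614.

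Members made up 0.952% (Clopper-Pearson interval 0.687 to 1.28) of the 4412 iAdFASNKO Lin- cells and 0.516% (0.295 to 0.836) of the 3103 control Lin- cells, a ratio of 1.85 (Katz interval 1.04 to 3.28). Without the epithelial-marker cells the control share was 0.387% (0.200 to 0.675) and the ratio 2.46 (1.30 to 4.67). Without the Schwann-transcript cells as well, the shares were 0.816% and 0.290% and the ratio 2.81 (1.36 to 5.83). Each cell was also thinned to 2000 UMIs before the rule, its exclusions included, to set the libraries at 1 depth. The rule then picked 20 of 3442 iAdFASNKO and 10 of 2801 control cells, of which 19 and 9 were members before thinning. The ratio was 1.63, with an interval of 0.763 to 3.47 that holds 1. Thinning left out 17 iAdFASNKO and 0 control members with fewer than 2000 UMIs, and none of the epithelial-marker cells met the rule after it. In thinned cells a difference was therefore not detectable at this depth.

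Shares of other cell classes of the Lin- libraries stand beside these. They also rest on detected genes and were not thinned, so the part of depth in them was not tested. Schwann cells were 2.18% of iAdFASNKO and 1.58% of control cells, a ratio of 1.38 (0.980 to 1.94), and smooth muscle cells 20.7% and 10.4%. Fibroblasts were 42.0% and 61.3%. Endothelial cells were 4.92% and 4.22%, a ratio of 1.17 (0.943 to 1.44), an interval that holds 1 like that of Schwann cells. Counted against Schwann cells, the other nerve cells, members without the epithelial-marker cells were 30.4% (22.9 to 38.8) of both together in iAdFASNKO and 19.7% (10.6 to 31.8) in control. These intervals overlap. In Lin+, fibroblasts were 24.5% of iAdFASNKO and 44.3% of control cells. Members were 0.111% and 0.0342% there, and the ratio of 3.25 has an interval of 0.380 to 27.8.

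**Figure D3:**
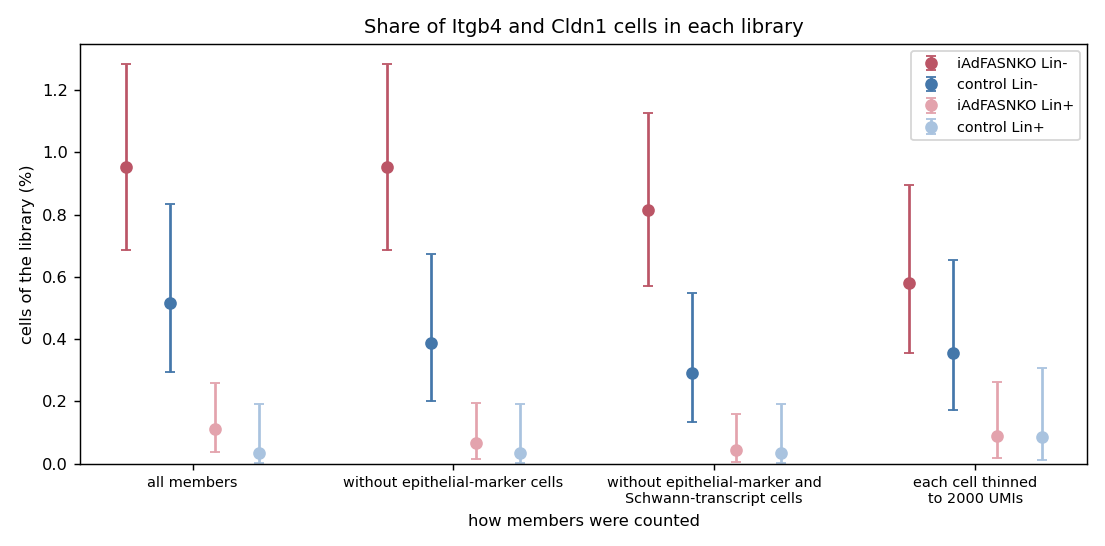
Points give members as a percentage of the retained cells of each of the 4 libraries, and bars the Clopper-Pearson 95% interval, for 4 ways of counting. The iAdFASNKO Lin- share lies above the control Lin- share in each, at 0.952% and 0.516% over all members and at 0.581% and 0.357% after thinning.

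The rest of the description uses CPM, the UMIs summed over the members of each Lin- library and scaled to a common total. The values leave out the epithelial-marker cells, which leaves 42 iAdFASNKO and 12 control cells, unless all members are named. Fibroblasts (Pdgfra and Dcn detected), Schwann cells (Sox10 and at least 2 UMIs of the same Schwann transcripts), smooth muscle cells and endothelial cells of the same libraries stand beside them. A count of 0 in these sums allows up to 22.1 CPM in iAdFASNKO and 34.6 CPM in control members, at 3 counts per library. The genes of the rule chose these cells, so their levels are given as a description. On mm10, Sfrp5 (ENSMUSG00000018822) lies at chr19:42197971-42202252 on the minus strand, Itgb4 (ENSMUSG00000020758) at chr11:115974709-116008412 on the plus strand and Cldn1 (ENSMUSG00000022512) at chr16:26356642-26371841 on the minus strand. Sfrp5, a secreted Wnt antagonist, had the most UMIs of them, at 2465 CPM in iAdFASNKO and 1315 CPM in control members. It was detected in 97.6% and 100% of the members, against 0.485% and 0.210% of fibroblasts, whose median depths were 5727 and 10798 UMIs. Itgb4 stood at 1162 and 1084 CPM, and its integrin partner Itga6 at 1030 and 738 CPM. Cldn1 stood at 809 and 519 CPM, and Klf5, a transcription factor of the Krüppel-like family, at 795 and 681 CPM. Ptch1 stood at 824 and 634 CPM and Lypd2, a GPI-anchored Ly6-family protein, at 456 and 381 CPM. Schwann cells held several of these transcripts too, with Sfrp5 at 417 and 577 CPM and Itgb4 at 274 and 381 CPM, but Cldn1 at only 60.9 and 71.4 CPM.

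The 2 promoters below are those of the rule gene with the most UMIs and of the hedgehog receptor, as RefSeq gives them on the GRCm38.p6 build from 250 bases before to 50 after the gene start. Both genes lie on the minus strand, Sfrp5 at chr19:42202203-42202502 and Ptch1 at chr13:63565686-63565985, and the sequences read 5′ to 3′ along the gene.
Sfrp5: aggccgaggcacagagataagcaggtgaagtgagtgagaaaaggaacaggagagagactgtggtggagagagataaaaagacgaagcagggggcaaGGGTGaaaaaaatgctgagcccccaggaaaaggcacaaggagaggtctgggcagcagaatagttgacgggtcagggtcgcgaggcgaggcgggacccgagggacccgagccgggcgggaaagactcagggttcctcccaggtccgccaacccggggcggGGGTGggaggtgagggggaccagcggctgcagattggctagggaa
Ptch1: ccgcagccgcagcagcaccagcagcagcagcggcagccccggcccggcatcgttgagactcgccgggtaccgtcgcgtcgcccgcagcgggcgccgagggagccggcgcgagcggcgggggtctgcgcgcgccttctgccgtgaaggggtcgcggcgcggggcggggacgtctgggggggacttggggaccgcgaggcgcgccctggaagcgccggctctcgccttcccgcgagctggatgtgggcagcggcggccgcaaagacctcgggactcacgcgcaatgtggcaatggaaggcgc
Capitals mark matches to CACCC, a core of sites bound by Krüppel-like factors such as Klf5, read on either strand, so that they appear here as GGGTG. There were 2 in the Sfrp5 window and 0 in that of Ptch1, while 57.5% of the 32851 promoters in the table hold at least 1. The GLI consensus GACCACCCA, which contains CACCC, is in 0.253% of promoters on either strand and in neither of these windows. These are matches of letters, not sites, and of the 7 genes 3 matched the table.

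Compared with fibroblasts, 137 of 1429 genes (9.59%) were at least 4-fold higher in the members of both Lin- libraries, with an interval of the ratio without 1. With all members the count was 112 of 2275 genes (4.92%). The rule itself fixes part of these counts. Among genes outside the rule with at least 40 UMIs in the members of each library, the highest by the lower of the 2 ratios was Sbspon, a matrix protein with a thrombospondin repeat, at 294 CPM in iAdFASNKO and 473 CPM in control members against 2.56 and 1.71 CPM in fibroblasts. Other genes among the 15 highest with that many UMIs were Ndrg1, which Schwann cells held at a higher level still, Nr2f2, a nuclear receptor, and Cavin2, a coat protein of caveolae. Nr2f2 stood at 1486 and 1546 CPM in members against 95.5 and 76.3 CPM in fibroblasts. Csrp1, a LIM-domain protein that smooth muscle cells held higher, was also among them. The 5 genes lowest against fibroblasts, of those with at least 40 UMIs in fibroblasts of each library, were Dpt, Ifi205, Mmp3, Dpep1 and Lpl. Dpt, a dermal and adipose matrix protein, had 0 UMIs in iAdFASNKO and 1 UMI in control members, against 1770 and 1559 CPM in fibroblasts.

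Of 15 perineurial genes that the rule did not use, 7 had enough UMIs in members of both libraries, and 5 of those 7 (Slc2a1, Tjp1, Krt19, Wnt6, Tenm2) were at least 4-fold above fibroblasts, beside 9.59% of all genes. Tjp1, the tight junction scaffold ZO-1, stood at 567 CPM in iAdFASNKO and 381 CPM in control members, against 38.6 and 34.7 CPM in fibroblasts. Tenm2, a teneurin adhesion protein, stood at 419 and 265 CPM against 1.67 and 1.03 CPM. Moxd1, a monooxygenase-like protein, had too few control UMIs for that count, but fibroblasts of both libraries held none, while members held 22 UMIs in iAdFASNKO and 6 in control. Ntn4 and Tagln2 did not reach the 4-fold limit. Msln, which like Krt19 is both on this list and among 10 mesothelial markers, had 0 UMIs in members of both libraries. Those 10 markers, Krt19 included, summed to 338 CPM in iAdFASNKO and 185 CPM in control members. Fibroblasts held them at 5.29 and 19.4 CPM and endothelial cells at 243 and 286 CPM.

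For the barrier, 4 of the 4 junction genes with enough UMIs (Tjp1, F11r, Cgnl1, Cdh5) were at least 4-fold above fibroblasts. The whole list of 21 junction genes summed to 1869 CPM in iAdFASNKO and 1142 CPM in control members. Schwann cells held it at 1200 and 1482 CPM and endothelial cells at 2809 and 3526 CPM, so the list did not set members apart from these classes. Cgnl1, a cytoplasmic plaque protein, stood at 221 and 138 CPM in iAdFASNKO and control members against 11.4 and 7.03 CPM. Cdh5 encodes VE-cadherin, the adherens junction protein of endothelium. It stood at 346 CPM in iAdFASNKO and 150 CPM in control members against 1.85 and 0.928 CPM in fibroblasts, and 583 and 528 CPM in endothelial cells. It was detected in 64.3% and 66.7% of members and in 0.863% and 0.631% of fibroblasts. Kdr and Cldn5, both abundant in those endothelial cells, had 0 UMIs in the members of both libraries, and Pecam1 is absent by the rule. All 12 endothelial markers together had 61 UMIs in iAdFASNKO and 24 in control members, of which Cdh5 had 47 and 13. Their sum was 449 and 277 CPM, against 10421 and 9325 CPM in endothelial cells.

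Of transport genes, 5 of 7 were at least 4-fold higher in members than in fibroblasts. So were 4 of 6 Schwann cell markers, with the Schwann-transcript cells among the members, and 3 of 5 neurotrophic and axon guidance genes. Over all genes the share was 9.59%. The whole transport list summed to 3782 CPM in iAdFASNKO and 2330 CPM in control members, and to 2139 and 2601 CPM in Schwann cells. The neurotrophic list summed to 979 and 1350 CPM in members and to 1256 and 1190 CPM in Schwann cells. Neither sum set members apart from Schwann cells in both libraries. Slc2a1 stood at 677 CPM in iAdFASNKO and 231 CPM in control members, against 5.46 and 4.10 CPM in fibroblasts, 43.5 and 71.4 CPM in Schwann cells and 87.6 and 55.8 CPM in endothelial cells. The members' levels were above those of all 3 classes in both libraries. Abcb1a, a drug efflux pump of blood-tissue barriers, stood at 184 and 115 CPM against 1.41 and 1.86 CPM in fibroblasts. Slc6a13, a transporter of GABA and taurine, stood at 140 and 161 CPM against 0.617 and 0.147 CPM.

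In the hedgehog pathway, Ptch1 helped to pick the cells, so its level is not read. Gli1, a transcript that hedgehog signalling induces, was the 1 of 2 measured genes outside the rule at least 4-fold above fibroblasts. It stood at 80.9 CPM in iAdFASNKO and 115 CPM in control members (11 and 10 UMIs) against 8.72 and 4.40 CPM in fibroblasts. The signal transducer Smo did not reach the 4-fold limit, at 125 and 115 CPM against 51.5 and 50.6 CPM. The ligand Dhh lay in Schwann cells, at 117 CPM in iAdFASNKO and 250 CPM in control, while the members held 0 and 2 UMIs. Hhip, an inhibitor that binds the ligand, had 0 UMIs in members of both libraries. The GDNF-family receptors were above fibroblasts too, Gfra1 at 199 and 150 CPM against 5.90 and 1.42 CPM in fibroblasts, and Gfra2 at 118 and 150 CPM against 10.5 and 4.83 CPM.

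Of matrix genes with enough UMIs, none of 12 basement membrane genes, 10 fibrillar and associated collagens or 9 fibroblast markers was 4-fold above fibroblasts. Beside 9.59% of all genes, these counts are too small to be read as a difference. Members carried fibroblast transcripts. Dcn, the proteoglycan decorin, stood at 8976 CPM in iAdFASNKO and 12595 CPM in control members against 10234 and 16531 CPM in fibroblasts. Endothelial cells held Dcn at 430 and 523 CPM. The 4 control epithelial-marker cells held 67 to 276 UMIs of Dcn each, so Dcn alone does not set a cell apart as mesenchymal here. The 10 fibroblast markers summed to 22536 and 28017 CPM in members and to 3220 CPM in those 4 cells. Col1a1 stood at 1994 and 2376 CPM in members against 9089 and 7077 CPM in fibroblasts. Of its UMIs, 179 of 271 in iAdFASNKO and 77 of 206 in control members lay in 1 cell each. The medians were 1 and 5.5 UMIs per member. That iAdFASNKO cell had 0 UMIs of Sfrp5 and Itgb4 and 200 of Dcn. Pdgfra, which defined the fibroblasts here, was at 36.8 and 57.7 CPM in members. Basement membrane chains differed in direction. The collagen IV chain Col4a1 stood at 743 and 496 CPM against 3844 and 3213 CPM in fibroblasts, and the laminin chain Lama2 at 125 and 115 CPM against 485 and 474 CPM. Lama4 stood at 302 and 254 CPM against 259 and 196 CPM, and Lamb2, the laminin beta2 chain, at 625 and 392 CPM against 190 and 256 CPM.

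**Figure D4:**
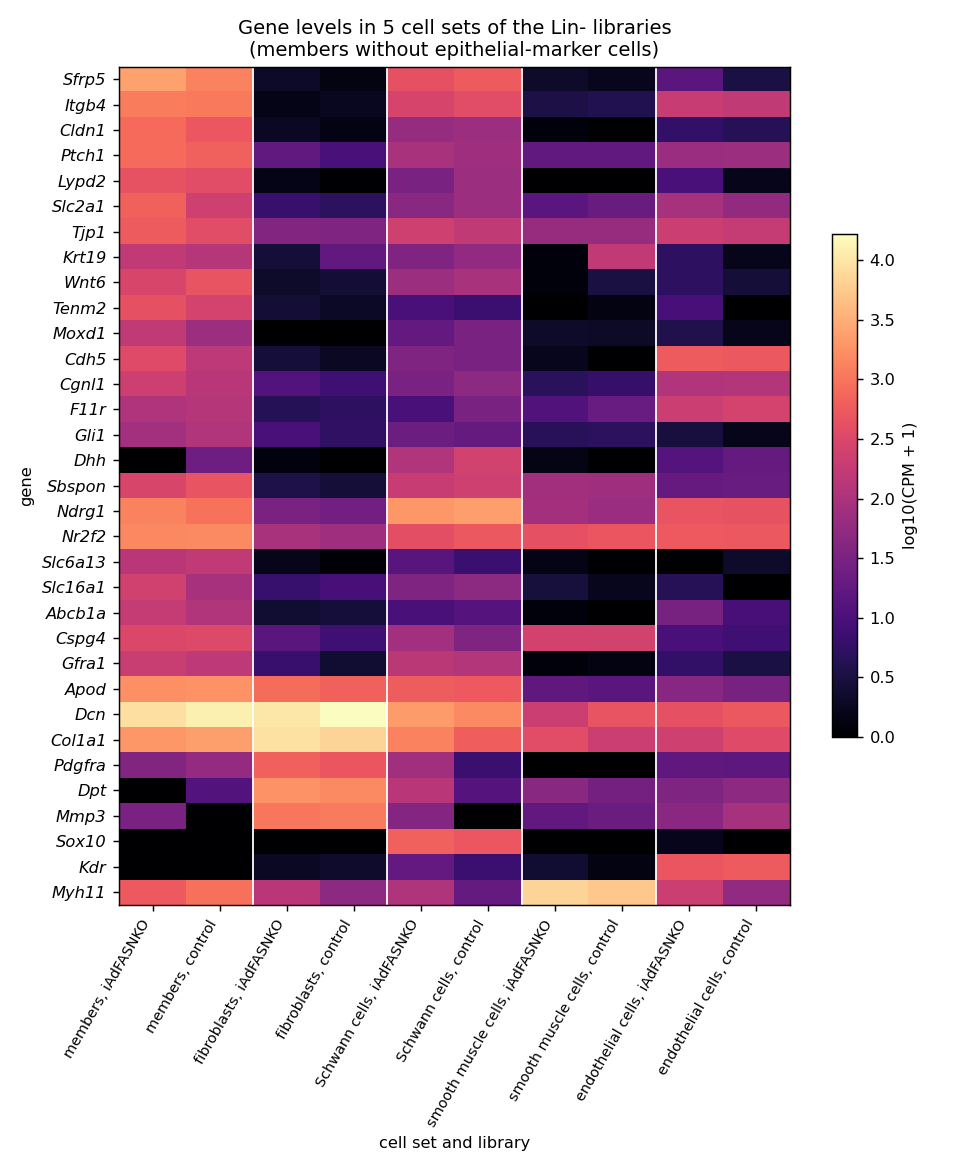
Colour gives log10 of CPM plus 1 for 33 genes in 5 cell sets of the iAdFASNKO and control Lin- libraries; members leave out the epithelial-marker cells. Sfrp5, Slc2a1, Tenm2 and Wnt6 are highest in the 2 member columns, Cdh5 is shared with endothelial cells but Kdr is not, and Dhh is highest in Schwann cells.

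For genotype, the genes compared were those with 20 UMIs or more in the 2 Lin- libraries together. A gene was called higher or lower in iAdFASNKO members at a CPM ratio of at least 1.5 or at most its inverse with an interval without 1, a rule of size and not a test. Over all members, 737 of 4017 genes (18.3%) were higher and 718 (17.9%) lower. Without the 4 epithelial-marker cells 1979 genes were measured, of which 109 (5.51%) were higher and 154 (7.78%) lower, with a median log2 ratio of -0.02. Without the Schwann-transcript cells too, 96 of 1497 (6.41%) were higher and 137 (9.15%) lower. Names by genotype are limited to called genes with at least 40 UMIs and at most 25% of them in 1 cell, a limit that leaves out genes with larger ratios. Within it, the 10 genes lowest over all members included Arpc1a, Cct3, Cct4, Cox14, Psma5, Psmd13, Psmd12, Cct7 and H2afv, among them chaperonin and proteasome subunits. The 4 epithelial-marker cells held 65.8% to 83.0% of the control UMIs of these genes. Their part of all UMIs of the control Lin- members, 255576 of 342274, lies within that range, so these shares do not set the genes apart. The log2 ratios of these genes were below 0 in all 16 settings, apart from Cct7, which was below 0 in 15. The 10 highest within the same limit, at ratios of 8.15 to 11.7, included Flrt2, Slc16a1, Gpc6, Itga1, Cdh5, Ralgps2, Adamtsl3 and Celf2. Of these, Ralgps2 had 1 of its 26 control UMIs in the 4 cells and the others 0. Flrt2, an adhesion protein of axon guidance, illustrates the shift, with a ratio of 11.7 over all members and 2.96 (1.52 to 6.29) without them. Fibroblasts of the same libraries gave 1211 of 12854 genes (9.42%) higher and 750 (5.83%) lower.

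The rule used the genes that follow, at different depths in the 2 libraries, so their ratios between genotypes are a description and no difference is read from them. Without the epithelial-marker cells, Sfrp5 had a ratio of 1.87 (1.51 to 2.34) and Cldn1 of 1.56 (1.09 to 2.26). Itgb4 had a ratio of 1.07 (0.825 to 1.40), Ptch1 of 1.30 (0.933 to 1.83) and Lypd2 of 1.20 (0.773 to 1.89), intervals that hold 1. Over all members the ratio of Itgb4 was 4.02. Outside the rule, 1 of 9 measured perineurial genes was higher and 1 lower, beside 5.51% and 7.78% of all genes. Over all members 5 were higher and 2 lower, beside 18.3% and 17.9% of all genes. The 1 lower without the epithelial-marker cells was Wnt6, a Wnt ligand, at 287 CPM in iAdFASNKO and 473 CPM in control members (39 and 41 UMIs), a ratio of 0.607 (0.381 to 0.964). With all members Wnt6 was called higher, at a ratio of 2.40 with a control level of 120 CPM. None of its 41 control UMIs lay in the 4 cells.

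Of 11 measured transport genes, 5 were higher and 1 lower without the epithelial-marker cells, beside 5.51% and 7.78% of all genes. The median log2 ratio was 0.79. Over all members 9 of 13 were higher and 3 lower, beside 18.3% and 17.9% of all genes, with a median of 2.27. Fibroblasts gave 4 of 19 higher and 2 lower, beside 9.42% and 5.83%, and a median of -0.10. Slc2a1, the higher perineurial gene above, had 92 UMIs in iAdFASNKO and 20 in control members. Its level was 677 CPM (546 to 830) against 231 CPM (141 to 356), a ratio of 2.93 (1.79 to 5.03), and its ratio in fibroblasts was 1.33. Per member, its median was 1 UMI in both libraries and its maximum 13 in iAdFASNKO and 6 in control, so the sums lean on the higher cells. It was detected in 24 of 42 iAdFASNKO and 9 of 12 control members, and in 3.13% and 4.26% of fibroblasts, so the share of cells with a UMI ran against the CPM, and no order is read from that share. Over all 16 settings its log2 ratio was above 0, from 1.12 to 2.94. Slc38a2, a glutamine transporter, stood at 1258 and 508 CPM, a ratio of 2.48 (1.77 to 3.54), with 1.31 in fibroblasts and 5.67 over all members. Slc16a1, the lactate transporter MCT1, stood at 243 and 92.3 CPM, a ratio of 2.63 (1.19 to 6.59), with 0.687 in fibroblasts and 10.4 over all members. Under the stricter cell filter its log2 ratio was 0.24, under the size limit of the rule. Slc6a6 and Slc1a5, carriers of taurine and of neutral amino acids, rested on 2 and 3 control UMIs. Abca8a, an ABC transporter, was lower, at 80.9 and 265 CPM.

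For dissociation and heat shock genes the direction depended on the 4 epithelial-marker cells. Over all members 10 of 18 were higher and 2 lower, beside 18.3% and 17.9% of all genes, with a median log2 ratio of 1.06. Without those cells 6 of 17 measured genes were lower (Jun, Jund, Ier2, Hspa1a, Hspa1b, Hspb1) and Fosb higher, with a median of -0.32. Of all genes 7.78% were then lower and 5.51% higher. Fibroblasts showed 9 of 18 lower and 0 higher, beside 5.83% and 9.42%, and a median of -0.57. Jun, an immediate early transcription factor, stood at 464 CPM in iAdFASNKO and 1165 CPM in control members, a ratio of 0.398 (0.286 to 0.550), with 0.715 in fibroblasts. Over all members Jun had a ratio of 0.741 and was not called. Beside the same shares, contractile and mural genes gave 4 of 6 measured lower without those cells (Acta2, Myh11, Tagln, Des). Over all members 4 of 6 were higher and 0 lower, with a median of 1.04. In fibroblasts 6 of 10 were higher. Of the Acta2 UMIs, 145 of 148 in iAdFASNKO and 190 of 193 in control members lay in 1 cell each. The summed level of the 10 markers was 3223 CPM in iAdFASNKO and 6044 CPM in control members, and the part of these cells in other lower calls was not tested. Without the top cell of each gene, 154 genes were higher and 51 lower. Schwann markers summed to 3951 and 4083 CPM in members, against 45941 and 56358 CPM in Schwann cells.

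Of nuclear-retained noncoding RNAs, a list added after values were seen, 3 of 6 were higher and 0 lower, beside 5.51% and 7.78% of all genes. The median log2 ratio was 0.78 against 0.09 in fibroblasts. The 3 higher ones were Kcnq1ot1 and the pair Gm42418 and Gm26917, loci known to overlap ribosomal RNA sequence. In fibroblasts Gm42418 was called higher and Neat1 lower. Summed over the 6 RNAs, the level was higher in iAdFASNKO in every class. Members held 149986 CPM in iAdFASNKO and 94662 CPM in control, and fibroblasts 104920 and 63741 CPM. Schwann cells held 116908 and 81116 CPM, smooth muscle cells 120445 and 79905 CPM, and endothelial cells 98347 and 56285 CPM. Kcnq1ot1 stood at 618 and 231 CPM, a ratio of 2.68 (1.63 to 4.61). Over all members it had a ratio of 1.33 and was not called, while 4 of the 6 were higher. Median UMIs per member, 2558 in iAdFASNKO and 6579 in control, moved with these differences, and the part of depth and RNA quality in them was not tested. Fibroblast markers gave 4 of 9 higher (Col1a2, Col3a1, Fbn1, Mfap5) and 1 lower (Gsn), and junction genes 2 of 6 higher, Jup and Cdh5. Mfap5, a microfibril protein, stood at 809 CPM in iAdFASNKO and 427 CPM in control members, a ratio of 1.90 (1.30 to 2.83), with 0.921 in fibroblasts and 7.49 over all members. Cdh5 had a ratio of 2.31 (1.23 to 4.65), with 1.99 in fibroblasts. Schwann markers gave 1 of 8 higher (Prx) and 2 lower, among them Scn7a. Basement membrane had 1 of 12 higher (Lamb2) and 1 lower (Hspg2, perlecan), and the hedgehog pathway 0 of 4 in either direction. Oxidative phosphorylation had 0 of 18 higher and 1 lower (Cox6c), and collagens 2 of 10 higher, again Col1a2 and Col3a1. Beside 5.51% and 7.78% of all genes, list counts of 0 or 1 gene are not read as a difference. Over all members these counts were very different, beside 18.3% of all genes higher and 17.9% lower. Higher were 9 of 9 fibroblast markers, 9 of 10 collagens (median 2.12), 11 of 13 basement membrane genes, 7 of 8 Schwann markers and 3 of 4 hedgehog genes. Of 22 oxidative phosphorylation genes 13 were lower, and of 12 junction genes 4 were higher and 5 lower. Of the UMIs of Col1a2 and Col3a1, 40.2% and 46.9% lay in 1 iAdFASNKO cell. Fasn, which the line's name places in adipocytes as the deleted gene, had 4 UMIs in iAdFASNKO and 3 in control members, too few to compare.

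Among genes named by size within the same limit, without the epithelial-marker cells, the higher ones included Jup, Bzw1, Wdr89, Flrt2, Slc2a1, Rpl10-ps3, Tmod3 and Kcnq1ot1. Jup, the junction protein plakoglobin, stood at 294 CPM in iAdFASNKO and 80.7 CPM in control members (40 and 7 UMIs), a ratio of 3.64 (1.62 to 9.64), with 0.636 in fibroblasts and 2.24 over all members. Wdr89 and Rpl10-ps3 were higher in iAdFASNKO fibroblasts as well, at ratios of 3.43 and 3.46 beside 3.19 and 2.87 in members. The lower ones were Lmna, H3f3a, Atp6v1g1, H2-D1, Jun, Pfn1, Crip2, Rock1, Islr and Cpe. Lmna, nuclear lamin A/C, stood at 177 CPM in iAdFASNKO and 531 CPM in control members, a ratio of 0.333 (0.194 to 0.557), with 0.674 in fibroblasts and 0.480 over all members. H2-D1, a class I histocompatibility gene, had a ratio of 0.393 in members and 0.442 in fibroblasts. Islr and Cpe, carboxypeptidase E, were on the higher side over all members and lower without the 4 cells, at 0.425 (0.286 to 0.626) and 0.428 (0.292 to 0.623). Whether any ratio differs between members and fibroblasts was not tested.

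**Figure D5:**
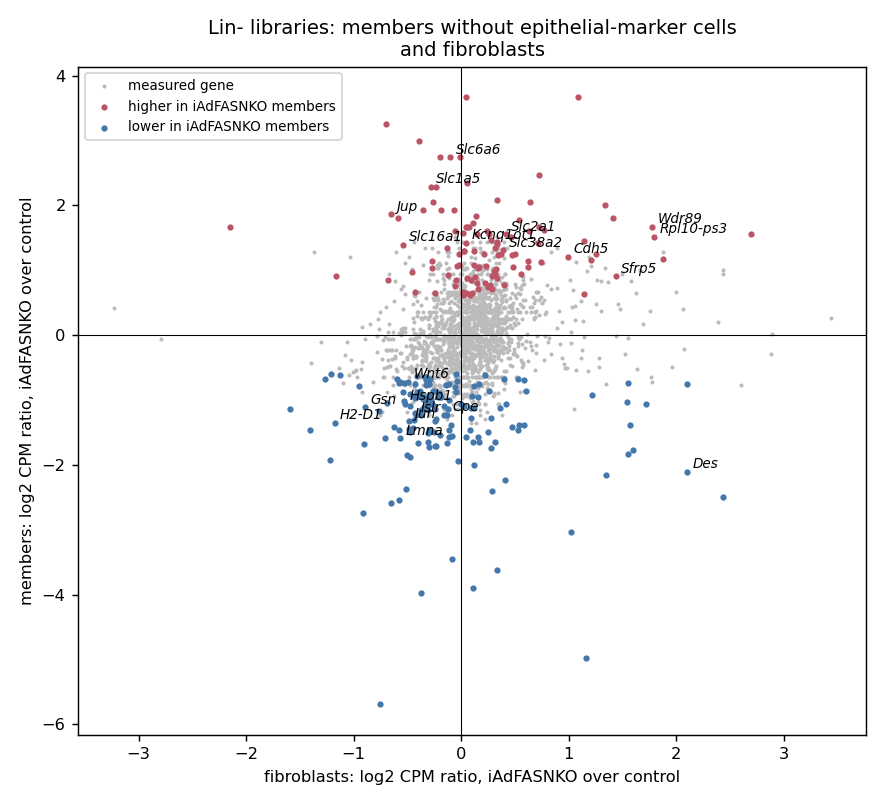
Each point is a measured gene, with the log2 CPM ratio of iAdFASNKO over control Lin- cells in fibroblasts on the x axis and in members without the epithelial-marker cells on the y axis. The 109 higher and 154 lower genes by the size rule are coloured, less those with 0 UMIs in a library. Wdr89 and H2-D1 lie off 0 on both axes, and Slc2a1, Jup and Lmna mainly on the y axis.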

How the data were processed

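The files were matrices, 1 per genotype, of raw UMI counts per gene and barcode that the authors deposited, as whole numbers without normalization, per the file headers. The submitters' processing notes name Cell Ranger 3.1.0, Seurat 3.0 and mm10. The barcode tag gives the fraction, per the labels, and the matrix name gives the genotype. A barcode was retained when it had 300 genes and 500 UMIs or more, of which mitochondrial transcripts made up 10% or less. Retained Lin- cells held 21578530 UMIs in iAdFASNKO and 29503960 in control, and Lin+ cells 22344949 and 19725195. Each matrix lists 31053 features. Ensembl identifiers and symbols are those of the files, and coordinates come from GENCODE M21 on GRCm38.

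Members were picked by the rule given above. UMIs were summed over cells per library and expressed as CPM with exact Poisson intervals. Ratios have exact conditional binomial intervals and shares of cells Clopper-Pearson intervals, all at 95%. The members, gene lists and rules were chosen with earlier results of these data known. The comparison classes and the limits of 4-fold and 10 UMIs against fibroblasts were set after values were seen. Smooth muscle cells had at least 2 of Acta2, Myh11, Rgs5 and Notch3, without Pdgfra. Endothelial cells had Pecam1 and Cdh5. Named genes had at least 40 UMIs and at most 25% of them in 1 cell, 10 in each direction by genotype, and against fibroblasts 15 higher and 5 lower. Some genes that these rules pick or that define the Schwann transcripts are not reported here. Doublets were called with Scrublet (scanpy 1.11.5, expected rate 0.06) and left in. It called 98 of 4412 and 29 of 3103 Lin- cells, iAdFASNKO and control. The ratio step was tested on simulated data. Python 3.11.15, numpy 2.4.6 and scipy 1.17.1 were used. Alternatives were another cell filter, another number of rule genes, thinning, other scaling, other UMI minimums, and cells with markers of other types, doublets or single top cells left out.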

Additional observations from a re-analysis of the deposited data

How the results depend on the processing

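The ratio of member shares in Lin- stayed above 1 in every alternative tried, from 1.13 with at least 3 of the 7 genes to 2.81, and its interval held 1 in thinned cells and with at least 3 genes. The 30 control cells with at least 3 genes took in 5 more cells with epithelial genes, and the 48 iAdFASNKO cells 0. Counts of genes by genotype depended on the cells taken. Against 737 higher and 718 lower over all members, the stricter cell filter gave 76 and 103, and at least 5 of the 7 genes 110 and 133. Leaving out cells with markers of other types, Cdh5 included, gave 74 and 116. Leaving out the epithelial-marker cells, an alternative chosen after seeing the data like the next 3, gave 109 and 154. Leaving out the Schwann-transcript cells too gave 96 and 137. With the epithelial-marker cells out, the mean of scaled cells gave 168 and 255, and dropping the top cell of each gene 154 and 51. Over all members, the mean of scaled cells gave 457 higher, dropping the top cell 343 lower, a minimum of 50 UMIs 340 and 462, and a minimum of 1 UMI 1229 higher. Among lists with at least 5 measured genes over all members, 3 had a median below 0. They were 7 under the stricter filter, 6 with at least 5 genes, 5 without cells of other types and 5 with scaled cells. Without the epithelial-marker cells they were 6, and 6 with scaled cells as well. Genes 4-fold above fibroblasts fell to 46 without cells of other types, against 112, where 24 iAdFASNKO and 6 control cells were left.

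Log2 ratios that turned sign against all members were these, in the order stricter filter, at least 5 genes, other types out, scaled cells, epithelial-marker cells out, Schwann-transcript cells out too, and epithelial-marker cells out with scaled cells or without the top cell. Cpe gave -1.42, -0.90, -0.89, -0.52, -1.22, -1.10, -0.93 and -1.06. Gsn gave -1.29, -1.19, -0.65, -0.39, -1.11, -1.30, -0.78 and -0.57. Islr gave -1.43, -1.27, -1.45, -0.83, -1.23, -1.59, -1.24 and -0.81. Wnt6 gave -0.72, -0.61, -1.03, -0.60, -0.72, -0.91, -1.02 and -0.52. Itgb4 gave -0.12 under the stricter filter, -0.10 without cells of other types and -0.27 without epithelial-marker cells and with scaled cells. Ptch1 gave -0.33 under the stricter filter, Cct7 0.50 without cells of other types and Lypd2 -0.040 without epithelial-marker and Schwann-transcript cells. Apart from the cells left out, the causes were not tested. Thinning was run for the shares of members only, not for other classes or gene levels. No paired analysis was possible because each genotype and fraction is 1 library and no replicate numbers exist.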

Other observations

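Hcn4, a pacemaker channel gene that the naming rule passed over because 1 cell held 26.2% of its UMIs, was chosen after its values were seen. Without the epithelial-marker cells it had 80 UMIs in 15 of 42 iAdFASNKO members and 4 UMIs in 4 of 12 control members, or 589 and 46.1 CPM, a ratio of 12.8 (4.79 to 48.0). Fibroblasts held 2.38 and 1.12 CPM. Hmgcs1, the cytosolic enzyme at the head of the mevalonate pathway, had 30 UMIs in 19 iAdFASNKO cells and 2 UMIs in 2 control cells, a ratio of 9.57 (2.43 to 82.6), with 0.617 in fibroblasts. It was also chosen after its values were seen and lies under the 40 UMIs of the naming rule.

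Netrin G1 (Ntng1), a synaptic and axonal adhesion protein, and Foxd1, a transcription factor of stromal progenitors in the kidney, were 2 further genes above fibroblasts that were chosen after their values were seen. Ntng1 stood at 552 CPM in iAdFASNKO and 323 CPM in control members against 1.41 and 1.17 CPM in fibroblasts, and 73.9 and 77.4 CPM in Schwann cells. Foxd1 stood at 199 and 115 CPM against 0.793 and 0.635 CPM in fibroblasts, and 4.35 and 5.95 CPM in Schwann cells.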
